A study of Mus musculus with 16 samples.

Results

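The genes described here were 10 that encode apolipoproteins or handle lipoproteins and their fatty acids in the liver: Apoa1, Apoa2, Apoa4, Apoa5, Apob, Apoc3, Apoe, Mttp, Lpl and Cd36. They were chosen by symbol, and each was found once among the 41079 genes of the count table. All 10 passed the filter on low counts that kept 16742 genes for testing, and the lowest count of any of the 10 in any library was 1000 reads. Livers of 16 mice aged 20 to 22 months were sequenced as poly-A RNA, with 4 mice in each of 4 groups, and knockout mice were compared with controls in each sex. Liver-specific knockout (LKO) mice carried Gcgr alleles with LoxP sites and the Albumin-Cre transgene. Control (CRE-) mice carried the same floxed alleles without Cre, so the controls lacked the transgene as well as the deletion. Male CRE-, male LKO, female CRE- and female LKO mice were all on the C57BL/6J background. The Albumin promoter drives Cre mainly in hepatocytes and from before adulthood, so the design targets hepatocytes, and Gcgr in other liver cells was not measured.

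Lipoproteins carry triglyceride and cholesterol in plasma, and the liver both secretes them and takes up their remnants. Microsomal triglyceride transfer protein loads lipid onto apolipoprotein B as it is made, smaller apolipoproteins then join the particle surface, and lipoprotein lipase releases fatty acids that cells take up through carriers such as CD36. Glucagon acts on hepatocytes to raise glucose output and fatty acid oxidation and is known to restrain hepatic triglyceride secretion.

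The 16 libraries held 33268424 to 56488920 counted reads each. Expression is given as CPM, the reads of a gene per fixed number of library reads after scaling by the trimmed mean of M-values (TMM), and differences as log2 fold change of LKO over CRE- with its standard error (SE) from edgeR's quasi-likelihood test, with p-values adjusted by the Benjamini-Hochberg method over all 16742 genes. A gene passed the test at an adjusted p under 0.05. Before any comparison, 2 libraries stood apart by more than 2 SD on the first 2 principal components, which held 23.9% and 16.8% of the variance. Female LKO 1 lay 2.42 SD from the mean on the first component and male CRE- 3 lay 2.25 SD from it on the second. Female LKO 4 came next on the first component at 1.59 SD. In male CRE- 3 and female LKO 1, longer genes also had relatively more reads, with a slope of 0.322 log2 CPM per doubling of exon length in male CRE- 3 and 0.248 in female LKO 1 across 16742 genes, against -0.129 to 0.0284 in the other libraries.

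Gcgr, the gene targeted in LKO mice, is at chr11:120420011-120429815 of GRCm39 on the + strand. Reads were counted over all its exons, those outside the deleted segment too, and from every liver cell type, so they do not measure the deletion itself. Gcgr stood at 162, 208, 201 and 180.0 CPM in female CRE- mice 1 to 4 and at 48.8, 132, 119 and 93.6 CPM in female LKO mice 1 to 4. In males, Gcgr stood at 190.4, 193, 127 and 189.6 CPM in CRE- mice 1 to 4 and at 117, 136, 129.9 and 160.3 CPM in LKO mice 1 to 4. Every female LKO mouse was under every female CRE- mouse, with female LKO 1 lowest, whereas in males the low control, CRE- 3, lay among the LKO mice. On the log2 scale Gcgr fell in females, at -0.93 (SE 0.25, adjusted p = 0.0443), and gave -0.37 (SE 0.24, adjusted p = 0.671) in males, where it was -0.51 (adjusted p = 0.792) without male CRE- 3. The difference between the sexes did not pass the test, at a log2 value of -0.57 (SE 0.35, adjusted p = 0.412). Without female LKO 1 the female value was -0.69 (adjusted p = 0.0802). Over all fits that left out 1 library it ran from -1.11 to -0.69 with adjusted p from 0.0225 to 0.136, and it passed in 3 of 16, those without male CRE- 2, male CRE- 3 or female LKO 2. Without female LKO 1 and male CRE- 3 together it was -0.69 (adjusted p = 0.0370).

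Of the 10 genes, 1 differed between LKO and CRE- females: Lpl, which rose. In females 4.24% of all genes tested passed (710 of 16742), and 7 of the 10 genes had an unadjusted p under 0.05, beside 21.4% of all genes (3584 of 16742), 2 of the 7 higher in LKO (Lpl and Apoa4) and 5 lower (Apoa2, Apoa5, Apoc3, Apoe and Mttp). In males, edgeR called 0 of the 10, against 0.454% of all genes (76 of 16742). An unadjusted p under 0.05 was found for 0 of the 10, beside 9.53% of all genes. DESeq2 and limma-voom also called 0 of the 10 in males, beside 339 and 148 of all 16742 genes. For the difference of the LKO effect between the sexes edgeR called 0 of the 10 and 0% of all genes. At an unadjusted p under 0.05 were 4 of the 10 (Apoa2, Apoa4, Apoc3 and Lpl) and 2672 of all genes. For this difference DESeq2 called 1 of the 10 (Lpl), beside 371 of all 16742 genes, and limma-voom 0, beside 29. Averaged over the sexes edgeR called 0 of the 10, against 2.86% of all genes (478 of 16742). There 1 (Apoc3) had an unadjusted p under 0.05, beside 15.8% of all genes. DESeq2 and limma-voom called 0 of the 10 for this mean, beside 1034 and 857 of all 16742 genes. The median log2 fold change of the 10 genes was -0.43 in females and -0.04 in males, beside 0.04 and -0.01 over all genes tested. In females 8 of the 10 values were negative. In bulk liver RNA, fewer cells of a type and less RNA per cell cannot be told apart, and this holds for every difference below.

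**Figure D1:**
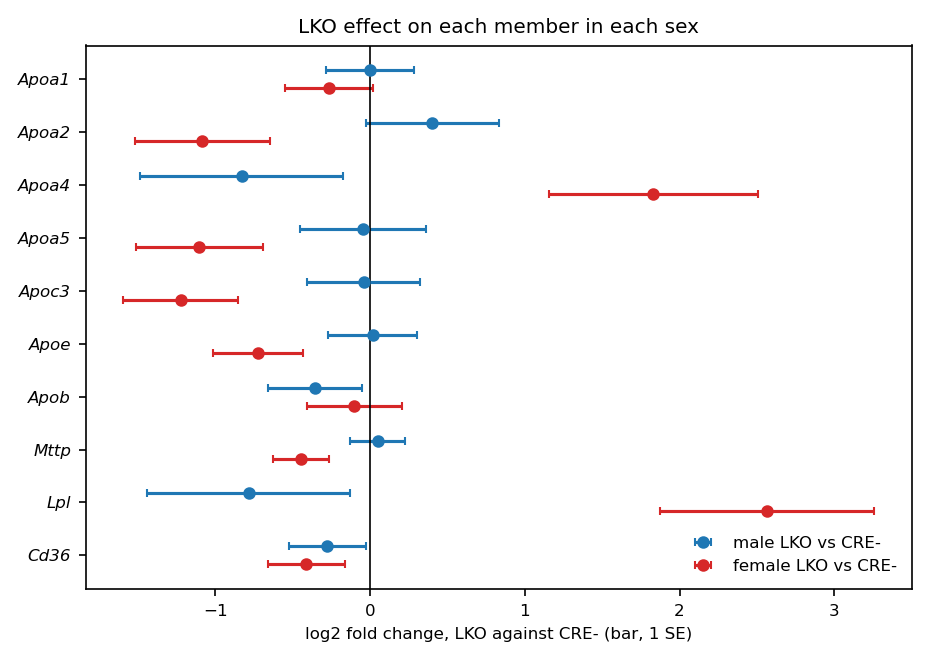
Log2 fold change of LKO over CRE- for each of the 10 genes in males (blue) and females (red), with bars of 1 SE from edgeR. In females Lpl (2.57) and Apoa4 (1.83) lie to the right of 0 and the other 8 genes to the left, whereas in males the values run from -0.83 (Apoa4) to 0.40 (Apoa2).

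Lipoprotein lipase, encoded by Lpl, splits the triglyceride of circulating particles at the vessel wall and is made mainly in muscle and fat, and at low levels in adult hepatocytes and in macrophages. The gene is at chr8:69333207-69359584 on the + strand, and all gene positions given here, other than those of promoters, are in GRCm39. Lpl stood at 64.7, 21.1, 23.9 and 98.5 CPM in female CRE- mice 1 to 4 and at 466, 107, 114 and 548 CPM in female LKO mice 1 to 4. All 4 female LKO mice were above all 4 female CRE- mice, but they formed a high pair (LKO 1 and 4) and a low pair (LKO 2 and 3), and the low pair lay close to CRE- 4. In males, Lpl stood at 59.4, 23.3, 182 and 83.6 CPM in CRE- mice 1 to 4 and at 52.9, 26.1, 85.9 and 37.3 CPM in LKO mice 1 to 4. The male groups overlapped, and male CRE- 3 was the highest of them. Lpl rose in LKO females, at 2.57 (SE 0.69, adjusted p = 0.0474) on the log2 scale, while males gave -0.78 (SE 0.66, adjusted p = 0.743). Without male CRE- 3 the male value was -0.15 (adjusted p = 0.999), and opposite directions in the sexes were not shown. The difference between the sexes was 3.35 on the log2 scale (SE 0.95, unadjusted p = 0.00264) and did not pass in edgeR's quasi-likelihood test (adjusted p = 0.179). Without male CRE- 3 edgeR gave 2.72 for that difference (adjusted p = 0.275). DESeq2 called the difference (adjusted p = 0.0444) and limma-voom did not. The result thus depended on the tool, and a rise limited to females was not shown.

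The Lpl call in females was close to the threshold and depended on single mice. Its log2 fold change stayed between 2.12 and 3.08 when any 1 of the 16 libraries was left out, but edgeR's adjusted p, from 0.0253 to 0.153, was under 0.05 in only 4 of the 16 fits, those without male CRE- 2, male CRE- 3, female LKO 2 or female LKO 3. Without female LKO 1 the value was 2.31 (adjusted p = 0.119) and without female LKO 4 it was 2.12 (adjusted p = 0.0985). Leaving out both of these high mice gave 1.10 (adjusted p = 0.576), and leaving out female LKO 1 and male CRE- 3, the libraries that stood apart, gave 2.31 (adjusted p = 0.0840). With all 16 libraries, DESeq2, limma-voom and edgeR with the replicate number as a term also called Lpl in females. The edgeR fits with each sex alone or with upper-quartile scaling did not. The 3 genes whose log2 CPM followed Lpl most closely over the 16 libraries were Loxl2 (Pearson r = 0.933), D17H6S56E-5 (r = 0.927) and Pkm (r = 0.925), which share its library scaling and the group differences.

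Macrophages make Lpl, and macrophage markers were high in some of the same mice. The 8 Kupffer cell markers (top gene Cd5l, none at 0 in any library) summed to 678, 519, 568 and 967 CPM in female CRE- mice 1 to 4 and to 3701, 867, 1979 and 1084 CPM in female LKO mice 1 to 4. Female LKO 1 was high in both Lpl and these markers, whereas LKO 4 had the most Lpl and a sum near that of CRE- 4. In females edgeR called 1 of the 8 (Adgre1, log2 fold change 2.15, SE 0.57, adjusted p = 0.0451), DESeq2 7 and limma-voom 7, and all 8 were higher at an unadjusted p under 0.05. Leaving out female LKO 1, which held 334 CPM of Adgre1, gave 1.21 (adjusted p = 0.189). In males the sums were 791, 431, 248 and 1156 CPM in CRE- mice and 1026, 579.9, 659.7 and 588 CPM in LKO mice, and edgeR, DESeq2 and limma-voom called 0 of 8, with 0 at an unadjusted p under 0.05.

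The 8 markers of lipid-associated macrophages (top gene Spp1, which bile duct cells also express) summed to 245, 101, 129 and 191 CPM in female CRE- mice and 189, 283, 221 and 360.2 CPM in female LKO mice, with none at 0. Of these, Trem2 (1.40 ± 0.455 CPM in CRE- and 9.12 ± 4.99 CPM in LKO females, adjusted p = 0.0249) and Cd9 (18.5 ± 1.82 CPM and 49.3 ± 31.0 CPM, adjusted p = 0.0340) rose in females (SD, n = 4 each), while DESeq2 called 4 of the 8 and limma-voom 3. On the log2 scale Trem2 gave 2.34 (adjusted p = 0.0655) without female LKO 1, and Cd9 0.92 (adjusted p = 0.0821) without female LKO 4. The 6 neutrophil markers (top gene S100a9) summed to 26.7, 15.01, 11.9 and 14.8 CPM in female CRE- mice and 81.4, 31.6, 49.2 and 493 CPM in female LKO mice, and edgeR called 2 of the 5 tested (Mmp8 and Retnlg, both higher), DESeq2 5 and limma-voom 2. Without female LKO 4 Mmp8 gave 2.66 (adjusted p = 0.0627) and Retnlg 2.04 (adjusted p = 0.0833). Female LKO 4 had by far the highest neutrophil sum among females and the highest Lpl. In males the neutrophil sums were 56.6, 14.4, 9.07 and 120 CPM in CRE- mice and 18.1, 10.9, 8.25 and 7.73 CPM in LKO mice. The difference between the sexes therefore also held high values of male CRE- 1 and 4. For that difference in these 5 genes edgeR called 0, with 5 at an unadjusted p under 0.05, DESeq2 5 and limma-voom 0. The 5 proliferation markers (top gene Mki67) summed to 9.60, 7.96, 4.60 and 17.3 CPM in female CRE- and 76.2, 14.9, 30.2 and 31.6 CPM in female LKO mice, and edgeR called 4 of 5, all higher, DESeq2 5 and limma-voom 4. All 4 remained higher without female LKO 1, with log2 values of 1.65 (in place of 1.72) for Cdk1, 2.28 (in place of 2.60) for Ccnb1, 1.36 (in place of 1.63) for Birc5 and 1.76 (in place of 2.45) for Top2a, but the adjusted p was 0.0638 to 0.139. The part of these cell types in the Lpl result was not tested.

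Apoa1, Apoc3, Apoa4 and Apoa5 lie together on chromosome 9 within 43292 bases of GRCm39, at chr9:46139928-46141767 (+ strand), chr9:46144348-46146934 (- strand), chr9:46152142-46154756 (+ strand) and chr9:46179906-46183219 (+ strand). Apoc3 encodes apolipoprotein C-III, which slows triglyceride clearance by inhibiting lipoprotein lipase. Apoc3 stood at 1351, 2188, 1912 and 2752 CPM in female CRE- mice 1 to 4 and at 247, 1027, 1077 and 1164 CPM in female LKO mice 1 to 4. The female groups did not overlap, and LKO 1 was far below the rest. In males, Apoc3 stood at 1354, 1493, 792 and 1624 CPM in CRE- mice 1 to 4 and at 1125, 1280.2, 1197 and 1511 CPM in LKO mice 1 to 4. The male groups overlapped, with CRE- 3 the lowest male. Apoc3 gave a log2 value of -1.22 (SE 0.37, adjusted p = 0.0705) in females and -0.04 (SE 0.37, adjusted p = 0.983) in males, and neither passed edgeR's test in the fit of 4 group means. Apoc3 was called in females by DESeq2 (adjusted p = 0.0173), by limma-voom (adjusted p = 0.0164) and by edgeR with the replicate number as a term (adjusted p = 0.0338). Without female LKO 1 the value was -0.89 (adjusted p = 0.100). Without both libraries that stood apart it was -0.89 with an adjusted p of 0.0471, within 0.0159 to 0.226 over the alternatives other than leaving out 1 library. The difference between the sexes was -1.18 (SE 0.52, adjusted p = 0.290), and the mean over both sexes was -0.63 (SE 0.26, adjusted p = 0.234).

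Apoa5 encodes a scarce plasma protein that promotes triglyceride hydrolysis by lipoprotein lipase. Apoa5 stood at 743, 1396, 1567 and 1489 CPM in female CRE- mice 1 to 4 and at 537, 898, 840.3 and 139 CPM in female LKO mice 1 to 4. Female LKO 4 was lowest by a wide margin, and the groups overlapped because CRE- 1 was below LKO 2 and 3. In males Apoa5 averaged 1295 ± 341 CPM in CRE- and 1254 ± 232 CPM in LKO mice (SD, n = 4). Apoa5 gave a log2 value of -1.11 (SE 0.41, adjusted p = 0.125) in females and -0.05 (SE 0.41, adjusted p = 0.983) in males. Without female LKO 4 the female value was -0.77 (adjusted p = 0.143).

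Apoa4 encodes an apolipoprotein of intestine and, in mice, liver that is induced with triglyceride accumulation. Apoa4 stood at 177, 178, 143 and 179.7 CPM in female CRE- mice 1 to 4 and at 264, 179, 193 and 1776 CPM in female LKO mice 1 to 4. In males, Apoa4 stood at 164, 206, 994 and 316 CPM in CRE- mice 1 to 4 and at 205, 256, 189 and 294 CPM in LKO mice 1 to 4. A single mouse was high in each of 2 groups, female LKO 4 and male CRE- 3, and every other library held 143 to 316 CPM. For Apoa4 the log2 value was 1.83 (SE 0.67, adjusted p = 0.122) in females and -0.83 (SE 0.66, adjusted p = 0.726) in males, with a sex difference of 2.66 (SE 0.94, adjusted p = 0.221). Without female LKO 4 the female value was 0.32 (adjusted p = 0.733), and without male CRE- 3 the male value was 0.03 (adjusted p = 0.999). The same mouse, female LKO 4, thus held the highest Apoa4 and the lowest Apoa5 of all 16, from genes that neighbor each other on 1 strand. With group means removed, log2 CPM of Apoa4 and Apoa5 correlated at r = -0.796 over the 16 libraries, which share their scaling. That value includes female LKO 4, the extreme of both genes, and the correlation without this mouse was not calculated.

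Apoa1, the main protein of high-density lipoprotein (HDL), showed the smallest female difference of the 4 clustered genes. Apoa1 stood at 7524, 4938, 5432 and 10098 CPM in female CRE- mice 1 to 4 and at 3609.6, 5851, 7151 and 6683 CPM in female LKO mice 1 to 4. In males, Apoa1 stood at 5378, 5866, 5981 and 10168 CPM in CRE- mice 1 to 4 and at 5276, 7399, 7469 and 7216 CPM in LKO mice 1 to 4. The groups overlapped in both sexes, with CRE- 4 highest among the controls of each sex and female LKO 1 lowest of all. The log2 fold change was -0.27 (SE 0.29, adjusted p = 0.647) in females and -0.0017 (SE 0.29, adjusted p = 0.999) in males, and the female value was 0.14 in limma-voom with sample weights.

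Apoa2 (chromosome 1, chr1:171049133-171053948, + strand) encodes the second most abundant HDL protein, and Apoe (chromosome 7, chr7:19430169-19434326, - strand) the ligand through which liver receptors take up remnant particles. Apoa2 stood at 5303, 8546, 8628 and 9726 CPM in female CRE- mice 1 to 4 and at 1151, 5799, 5677 and 2554 CPM in female LKO mice 1 to 4. LKO 1 and LKO 4 were the lowest females, and the other LKO mice lay between CRE- 1 and the rest of the controls. Apoe stood at 16188, 19748, 20413 and 22739 CPM in female CRE- mice 1 to 4 and at 6432, 17046, 13865 and 10519.9 CPM in female LKO mice 1 to 4. Again LKO 1 was lowest and LKO 4 next, and LKO 2 lay above CRE- 1, so these groups overlapped. In males Apoa2 averaged 5232 ± 2152 CPM in CRE- and 6913 ± 1579 CPM in LKO mice, and Apoe 17031 ± 5040.0 CPM and 17231 ± 2386 CPM (SD, n = 4 each). For Apoa2 the log2 fold change was -1.08 (SE 0.44, adjusted p = 0.156) in females and 0.40 (SE 0.43, adjusted p = 0.800) in males, with a sex difference of -1.49 (SE 0.61, adjusted p = 0.267), and without male CRE- 3 the male value was 0.13 (adjusted p = 0.999). For Apoe it was -0.72 (SE 0.29, adjusted p = 0.153) in females and 0.02 (SE 0.29, adjusted p = 0.994) in males. Without female LKO 1 these female values were -0.76 for Apoa2 and -0.50 for Apoe, and neither gene passed in any edgeR fit that left out 1 library. In the edgeR fit with the trend of reads with exon length removed, Apoa2 passed in females, at -1.09 (adjusted p = 0.0497). Apoe did not pass there (adjusted p = 0.0799). With group means removed, log2 CPM of Apoa2 and Apoe correlated at r = 0.964 over 16 libraries. Apoc3 correlated with both (r = 0.860 with Apoa2 and 0.846 with Apoe), and Lpl ran the other way to Apoa2 (r = -0.694). These values share the library scaling. They include female LKO 1, the lowest female for Apoa2, Apoe and Apoc3, and male CRE- 3, the lowest male for each. The correlations without these libraries were not calculated. The annotated exons of Apoa2 share 143 bases with Tomm40l on the opposite strand.

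**Figure D2:**
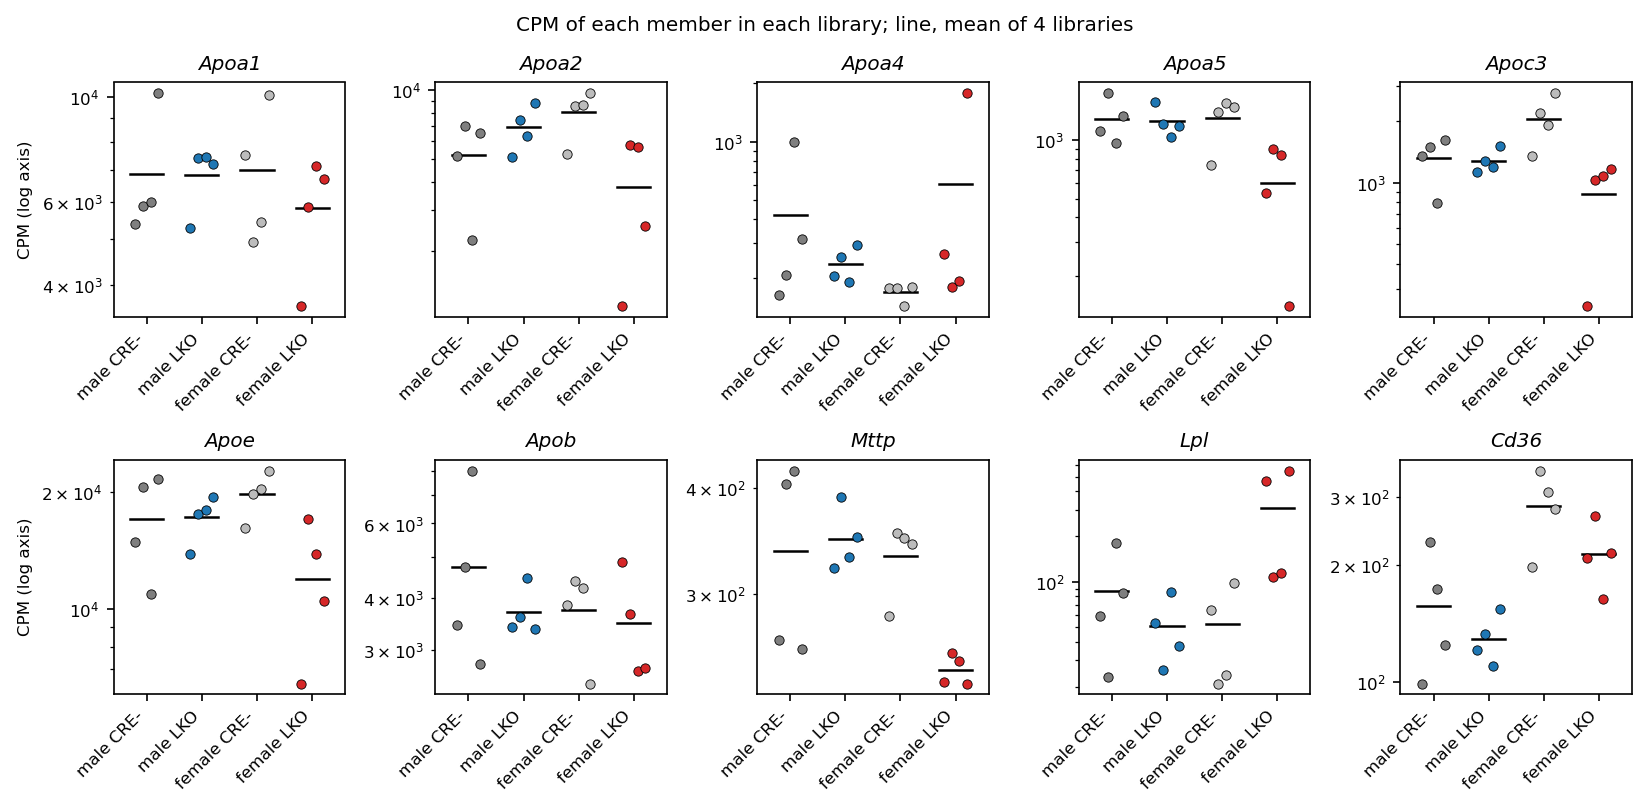
CPM of each gene in each library on a log axis, by group, with a line at the mean of 4 mice. Female LKO mice held 107 to 548 CPM of Lpl against 21.1 to 98.5 in female CRE- mice, and female LKO 4 alone held 1776 CPM of Apoa4.

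Apob (chr12:8027629-8066839, + strand) encodes the core protein of very-low-density lipoprotein (VLDL), of which each particle holds a single copy, and Mttp (chr3:137795616-137849179, - strand) the large subunit of the lipid-transferring complex that assembles it. Mttp stood at 283, 354, 349.5 and 344 CPM in female CRE- mice 1 to 4 and at 236, 256, 250.0 and 235 CPM in female LKO mice 1 to 4. All 4 female LKO mice were below all 4 CRE- mice and lay within a narrow band. In males, Mttp stood at 265, 405, 419.7 and 259 CPM in CRE- mice 1 to 4 and at 322, 391, 332 and 350.0 CPM in LKO mice 1 to 4. The male groups overlapped, since CRE- mice 2 and 3 were highest and CRE- mice 1 and 4 lowest. The log2 fold change of Mttp was -0.44 (SE 0.18, adjusted p = 0.157) in females and 0.05 (SE 0.18, adjusted p = 0.952) in males. In females 3 of the 10 genes had groups that did not overlap (Apoc3, Mttp and Lpl), beside 11.6% of all genes tested, and in males 0 of the 10 did, beside 6.49%.

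Apob stood at 3839.9, 4383, 4216 and 2498 CPM in female CRE- mice 1 to 4 and at 4860.2, 3662, 2682 and 2714 CPM in female LKO mice 1 to 4. In males, Apob stood at 3442, 4722, 8012 and 2784 CPM in CRE- mice 1 to 4 and at 3395, 3593, 4456 and 3362 CPM in LKO mice 1 to 4. Both sexes overlapped, and male CRE- 3 held more Apob than any other mouse. The log2 fold change of Apob was -0.10 (SE 0.31, adjusted p = 0.892) in females and -0.36 (SE 0.31, adjusted p = 0.747) in males, and without male CRE- 3 the male value was 0.01. Apob has the longest exon sequence of the 10 genes (13957 bases), and male CRE- 3 and female LKO 1, the libraries in which long genes had relatively more reads, were its highest libraries. The part of this length trend in the Apob values was not tested beyond the fit with the trend removed, which gave -0.12 in males and -0.27 in females.

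Cd36 (chr5:17986680-18093828, - strand) encodes a scavenger receptor and long-chain fatty acid carrier that is known to be higher in female than in male rodent liver. Cd36 stood at 198, 350.0, 308 and 279 CPM in female CRE- mice 1 to 4 and at 209, 267, 163 and 214 CPM in female LKO mice 1 to 4. In males, Cd36 stood at 99.1, 229, 173 and 125 CPM in CRE- mice 1 to 4 and at 121, 133, 109.8 and 154 CPM in LKO mice 1 to 4. Every LKO group overlapped its control group, and female LKO 3 was lowest among females. The log2 fold change of LKO over CRE- was -0.41 (SE 0.25, adjusted p = 0.369) in females and -0.28 (SE 0.25, adjusted p = 0.762) in males. Between controls, female CRE- mice held 284 ± 64.1 CPM and male CRE- mice 157 ± 57.4 CPM (SD, n = 4 each), a log2 difference of female over male of 0.86 (SE 0.25, adjusted p = 0.146). In this comparison of the controls edgeR called 0 of the 10 genes, beside 0.92% of all genes tested. There 1 (Cd36) had an unadjusted p under 0.05, beside 12.7% of all genes. DESeq2 and limma-voom each called 1 (Cd36), beside 509 and 329 of all 16742 genes. The control sexes did not separate fully for any of the 10 genes, beside 7.54% of all genes. The other 9 genes ranged from -1.31 (Apoa4) to 0.64 (Apoc3).

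Per kilobase of exon, the scale on which genes can be set beside each other, Apoa2 (8601 ± 2039 CPM per kb), Apoe (8103 ± 1111) and Apoa1 (7083 ± 2379) led in female CRE- mice and differed by less than the spread between mice (SD, n = 4). Apoc3 followed at 2749 ± 781 CPM per kb, then Apoa5 at 514 ± 149, Apob at 268 ± 61.2 and Apoa4 at 102 ± 10.5. Cd36 (76.6 ± 17.3 CPM per kb) and Mttp (69.9 ± 7.05) did not differ beyond their spread, and Lpl was lowest at 12.9 ± 9.10. In female LKO mice Lpl reached 76.3 ± 57.1 CPM per kb, which overlapped Cd36 (57.6 ± 11.5) and Mttp (51.4 ± 2.13). Together the 10 genes held 2.04% of all counted reads in female LKO 1, the lowest share, and 4.43% in male CRE- 4, the highest.

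The promoters of 4 members are shown. Apoa4 and Apoa5, neighbors on 1 strand, had opposite extremes in female LKO 4. Apoa2 and Apoe, on different chromosomes, correlated over libraries that included the ones standing apart. Shared regulation was not tested. Each is 250 bases before an annotated start from RefSeq, 5' to 3' on the gene's own strand, in build GRCm38.p6, which differs from the GRCm39 build of the counts. They lie at chr9:46240594-46240843 (+ strand) for Apoa4, chr9:46268358-46268607 (+ strand) for Apoa5, chr1:171224804-171225053 (+ strand) for Apoa2 and chr7:19699189-19699438 (- strand) for Apoe. Apoa2, Apoa5 and Apoe have other annotated starts, and only 1 window of each is printed. Capitals mark CAAAG or its reverse complement CTTTG, core letters of sites for HNF4A, a nuclear receptor of hepatocytes.
Apoa4: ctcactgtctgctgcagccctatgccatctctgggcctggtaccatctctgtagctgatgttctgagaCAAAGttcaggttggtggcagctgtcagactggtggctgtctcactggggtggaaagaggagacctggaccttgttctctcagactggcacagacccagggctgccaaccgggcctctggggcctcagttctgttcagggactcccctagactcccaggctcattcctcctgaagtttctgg
Apoa5: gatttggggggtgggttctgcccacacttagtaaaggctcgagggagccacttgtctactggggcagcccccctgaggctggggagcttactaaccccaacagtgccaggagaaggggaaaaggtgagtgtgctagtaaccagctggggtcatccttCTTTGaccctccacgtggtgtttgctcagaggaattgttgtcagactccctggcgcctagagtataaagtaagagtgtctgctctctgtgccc
Apoa2: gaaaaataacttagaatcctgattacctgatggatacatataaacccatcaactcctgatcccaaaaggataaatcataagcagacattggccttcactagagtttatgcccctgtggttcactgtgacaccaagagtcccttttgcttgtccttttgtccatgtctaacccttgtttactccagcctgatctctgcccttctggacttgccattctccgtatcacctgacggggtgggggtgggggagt
Apoe: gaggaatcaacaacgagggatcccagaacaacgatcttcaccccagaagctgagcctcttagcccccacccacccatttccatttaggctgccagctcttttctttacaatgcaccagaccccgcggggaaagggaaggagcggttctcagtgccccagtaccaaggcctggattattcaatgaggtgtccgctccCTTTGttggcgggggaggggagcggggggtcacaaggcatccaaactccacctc
CAAAG, searched on both strands, occurred 1 time in the printed windows of Apoa4, Apoa5 and Apoe and 0 times in that of Apoa2, and it was found in 48.6% of all 32851 promoters of that length. TATAAA, the letters of a TATA box, occurred in the printed windows of Apoa5 and Apoa2 and in 12.4% of all promoters. TGACG, part of the cAMP response element through which glucagon signals can act, occurred in that of Apoa2 and in 17.8% of all promoters. Windows of the same gene differed: another of the 3 windows of Apoe held TATAAA 2 times and CAAAG 1 time and the last held none of the 3 motifs, as did the other window of Apoa2. Of the 10 genes 8 had a promoter in the reference, with 12 annotated windows that overlap in part (Apoc3 and Lpl are named only), and 8 windows held CAAAG, 5 TATAAA and 2 TGACG. A match is a description, not a site or a cause.

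Other genes of lipoprotein metabolism were counted in 7 lists by role. In females 10 of the 92 listed genes tested passed, 9 lower and 1 higher in LKO mice, beside 4.24% of all genes. In males 1 of 92 passed, higher in LKO mice, beside 0.454%. DESeq2 called 23 in females and 5 in males, beside 1816 and 339 of all 16742 genes. With limma-voom the counts were 20 and 2, beside 1976 and 148. Of the 10 other apolipoproteins tested 1 fell in females, Apol7a, from 148 ± 28.9 CPM to 60.0 ± 26.3 CPM (SD, n = 4 each, log2 fold change -1.30, SE 0.27, adjusted p = 0.0200). Averaged over the sexes Apol7a fell (-0.92, SE 0.19, adjusted p = 0.0140), a call kept in all 16 fits that left out 1 library, and in males alone it did not pass. Apon, an apolipoprotein gene of mouse liver, was also called over both sexes (-0.71, SE 0.18, adjusted p = 0.0465), but in only 2 of those 16 fits (adjusted p up to 0.0925), over which its value stayed between -0.79 and -0.61, and it passed in neither sex alone. The median female log2 fold change of this list was -0.55.

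Of the 15 genes of lipoprotein assembly and secretion 1 fell in females, Dgat2, which makes the triglyceride that fills VLDL. Dgat2 averaged 693 ± 141 CPM in female CRE- and 357 ± 72.3 CPM in female LKO mice (log2 fold change -0.96, SE 0.26, adjusted p = 0.0484) and gave 0.19 (SE 0.26, adjusted p = 0.849) in males, with a sex difference of -1.14 (SE 0.36, adjusted p = 0.204). Of 12 lipases and lipase regulators edgeR called 0 in males and 0 in females, with 2 and 6 at an unadjusted p under 0.05, while DESeq2 called 0 and 4 and limma-voom 0 and 2. The strongest by p was Lipc, hepatic lipase, at -1.02 (SE 0.29, adjusted p = 0.0565) on the log2 scale in females and 0.55 (SE 0.29, adjusted p = 0.577) in males, followed by Angptl6 at -0.92 (SE 0.28, adjusted p = 0.0730) in females.

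Of 11 genes of HDL formation and remodeling 1 fell in females, Pltp, which transfers phospholipid onto HDL. Pltp stood at 182, 305, 239 and 331 CPM in female CRE- mice 1 to 4 and at 41.2, 105, 108 and 60.4 CPM in female LKO mice 1 to 4. No female LKO mouse reached the lowest control. In males, Pltp stood at 155, 258, 91.6 and 287 CPM in CRE- mice 1 to 4 and at 86.2, 87.2, 72.0 and 91.6 CPM in LKO mice 1 to 4. Male CRE- 3 lay level with the highest male LKO mice, and the other controls above. Pltp gave -1.75 (SE 0.35, adjusted p = 0.0176) in females and -1.23 (SE 0.34, adjusted p = 0.157) in males, and over both sexes it fell with a log2 value of -1.49 (SE 0.24, adjusted p = 0.00302). Pltp was called in males by DESeq2 (adjusted p = 0.0236), by limma-voom (adjusted p = 0.0430) and by edgeR without female LKO 1 and male CRE- 3 (adjusted p = 0.0216). Scarb1, the HDL receptor, was called higher over both sexes (0.46, SE 0.12, adjusted p = 0.0488), but in only 2 of the 16 fits that left out 1 library (adjusted p up to 0.119), over which its value stayed between 0.41 and 0.51, and it passed in neither sex alone.

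Of 13 lipoprotein receptors and clearance genes 2 passed in females. Lrpap1, a chaperone of lipoprotein receptors, fell (-0.69, SE 0.15, adjusted p = 0.0256), and Msr1, a scavenger receptor of macrophages, rose (1.63, SE 0.44, adjusted p = 0.0486). Msr1 stood at 204, 30.5, 41.3 and 50.2 CPM in female LKO mice 1 to 4, so that LKO 1, the mouse with the highest Kupffer cell sum, was far above the rest, and without it the value was 0.65 (adjusted p = 0.149).

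Of 10 genes of fatty acid uptake and binding 2 fell in females, the bile acid and fatty acid ligase Slc27a5 (-0.77, SE 0.19, adjusted p = 0.0335) and the fatty acid binding protein Fabp2 (-1.48, SE 0.36, adjusted p = 0.0326), and 1 rose in males, Cav1, a coat protein of caveolae. In males, Cav1 stood at 3.45, 3.21, 4.42 and 6.02 CPM in CRE- mice 1 to 4 and at 2.65, 38.4, 35.0 and 38.4 CPM in LKO mice 1 to 4. LKO mice 2, 3 and 4 were well above all controls and LKO 1 was below them, so the groups overlapped. Cav1 gave 2.74 (SE 0.58, adjusted p = 0.0468) in males and -0.18 (SE 0.55, adjusted p = 0.896) in females, with a sex difference of -2.92 (SE 0.79, adjusted p = 0.172). That difference passed in 1 of the 16 fits that left out 1 library (adjusted p = 0.0312). Over the other alternatives its adjusted p ran from 0.0155 to 0.482. The male call of Cav1 was lost in 12 of those 16 fits (adjusted p up to 0.157), although the male value stayed between 2.55 and 3.11 in all 16. It was also lost in limma-voom (adjusted p = 0.122) and with the replicate number as a term, at 2.82 and 2.64. Cav1 is abundant in fat, muscle and endothelium. The 7 striated muscle markers (top gene Acta1) summed to 2.27, 1.38, 0.780 and 1.66 CPM in male CRE- and 2.62, 1.06, 117 and 66.8 CPM in male LKO mice, high in LKO 3 and 4 but not in LKO 2. The 7 adipocyte markers summed to 2474, 4396, 2962 and 2983 CPM in male CRE- and 328, 5266, 3238 and 3448 CPM in male LKO mice, nearly all from Car3, which liver also expresses. Among the others, Cfd stood at 3.85, 21.5, 0.780 and 22.0 CPM in male CRE- and 0.0514, 103, 9.17 and 79.1 CPM in male LKO mice, high in LKO 2 and 4, and Adipoq at 0, 0.178, 0 and 0 CPM and 0, 0, 0.348 and 1.89 CPM. The 8 endothelial markers (top gene Stab2) summed to 165, 264, 206 and 231 CPM in male CRE- and 270.3, 251, 287 and 273 CPM in male LKO mice. Their part in the Cav1 result was not tested.

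Of 21 transcription regulators of the 10 genes 3 fell in females, among them Srebf1, which drives fatty acid synthesis and is induced by insulin, and Nr5a2, a nuclear receptor of bile acid and HDL genes. Srebf1 stood at 487, 366, 643 and 561 CPM in female CRE- mice 1 to 4 and at 140.3, 252, 186 and 206 CPM in female LKO mice 1 to 4. All female LKO mice were below all controls. In males, Srebf1 stood at 569, 718, 709.9 and 485 CPM in CRE- mice 1 to 4 and at 123, 496, 165 and 290.0 CPM in LKO mice 1 to 4. Male LKO 2 lay within the range of the male controls and the other 3 LKO mice below it. Srebf1 gave -1.39 (SE 0.35, adjusted p = 0.0369) in females, -1.21 (SE 0.35, adjusted p = 0.174) in males and -1.30 (SE 0.25, adjusted p = 0.00811) over both, and in males DESeq2 called it (adjusted p = 0.0256) while limma-voom did not (adjusted p = 0.257). Nr5a2 gave -0.58 (SE 0.16, adjusted p = 0.0483) in females and -0.17 (SE 0.16, adjusted p = 0.769) in males, and the sex difference was -0.42 (SE 0.22, adjusted p = 0.358). Over both sexes 8 of the 92 listed genes passed, beside 2.86% of all genes. For the sex difference edgeR called 0, with 21 of 92 at an unadjusted p under 0.05, beside 2672 of all 16742 genes. DESeq2 called 3 for that difference, beside 371 of all genes. The 11 listed genes that edgeR called in 1 sex and not in the other had sex differences from -2.92 (Cav1) to 1.53 (Msr1) on the log2 scale, with adjusted p from 0.172 to 0.878. Of the 16 edgeR fits that left out 1 library, the female call held in 14 for Pltp, 13 for Apol7a, 11 each for Lrpap1 and Fabp2, 9 for Slc27a5, 7 for Srebf1, 4 each for Dgat2 and Nr5a2 and 3 for Msr1. The values of these genes kept direction in all 16 fits, from 0.65 to 1.90 for Msr1, -1.94 to -1.51 for Pltp and -0.66 to -0.50 for Nr5a2, for example. Without female LKO 1 and male CRE- 3, the libraries that stood apart, edgeR called 2 of the 92 listed genes in females, with 31 at an unadjusted p under 0.05 (beside 3163 of all 16945 genes of that fit), and without both female LKO 1 and 4 it called 0, with 19 at an unadjusted p under 0.05 (beside 2025 of 17593).

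Hepatocytes are the main liver source of the apolipoproteins and of Mttp, and the summed hepatocyte markers were lower in LKO females. The 8 hepatocyte markers (top gene Alb, none at 0) summed to 116707, 110472, 115759 and 129097 CPM in female CRE- mice 1 to 4 and to 53642, 90610.0, 85204 and 68804 CPM in female LKO mice 1 to 4. Most of each sum came from Alb alone, which ran from 41687 CPM in female LKO 1 to 105504 CPM in female CRE- 4. LKO 1 was lowest and LKO 4 next, and all LKO sums were under all control sums. Apoa2 and Apoe had the same lowest mice in this order, but other genes did not. Apoa5 (139 CPM) and Mttp (235 CPM) were lowest in LKO 4. Apoc3 was lowest in LKO 1 (247 CPM) but, among the LKO females, highest in LKO 4 (1164 CPM). Apob was highest of the LKO females in LKO 1 (4860.2 CPM). In males they summed to 67509, 93134, 102341 and 89485 CPM in CRE- and 60764, 68179.7, 86208 and 70037 CPM in LKO mice, which overlapped. In each sex edgeR called 0 of 8, with 3 of 8 lower at an unadjusted p under 0.05, while DESeq2 called 1 in females and 0 in males and limma-voom 2 and 0. None of Apoa2, Apoa5, Apoc3, Apoe and Mttp passed edgeR's test in females in the fit of 4 group means. The part of hepatocyte content in their negative female values was not tested.

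Among the other marker lists in females, 1 of 8 endothelial genes rose (Cdh5), 1 of 2 enterocyte genes tested fell (Fabp2, which hepatocytes also express), and edgeR called 0 of 7 adipocyte, 0 of 6 striated muscle, 0 of 7 stellate cell, 0 of 6 cholangiocyte, 0 of 5 B cell and 0 of 6 T cell genes, of which 3, 0, 2, 0, 1 and 0 had an unadjusted p under 0.05. Leaving out female LKO 1 changed Cdh5 from 0.79 to 0.71 (adjusted p = 0.0588) and Fabp2 from -1.48 to -1.32 (adjusted p = 0.0955), and with male CRE- 3 left out as well Cdh5 passed, at 0.71 (adjusted p = 0.0471). Of the 6 lists without a call by edgeR, in the same order, DESeq2 called 1, 0, 2, 0, 0 and 0 genes and limma-voom 2, 0, 1, 0, 0 and 0. In males edgeR called 0 genes of each of the 13 marker lists, while DESeq2 called 4 striated muscle genes and 1 neutrophil gene and limma-voom 0 of any list, with 5 of 6 striated muscle genes and 2 of 7 adipocyte genes higher, and 4 of 5 neutrophil genes lower, at an unadjusted p under 0.05. Summed striated muscle markers in females were 6.61, 1.56, 1.29 and 26.1 CPM in CRE- and 1.41, 14.2, 2.69 and 1.91 CPM in LKO mice. Adipoq, a marker of fat, stood at 1.73, 1.05, 0.718 and 0.641 CPM in female CRE- and 0.151, 2.29, 0.0366 and 0 CPM in female LKO mice. All 7 adipocyte markers summed to 1403, 3749, 3137 and 2854 CPM in female CRE- and 145, 930.5, 1061 and 154 CPM in female LKO mice, nearly all from Car3 except in LKO 4, where Fabp4, which macrophages also express, held 109 CPM. The part of muscle and fat, both main sites of Lpl, in the Lpl result was not tested.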

How the data were processed

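Poly-A RNA of 16 livers was sequenced in pairs. The authors aligned reads to GRCm39 with STAR 2.7.1a and deposited a table of counts per gene made with featureCounts of Subread 2.0.6, with the RefSeq annotation and the reverse-stranded setting, and reads rather than fragments were counted. Reads in the wrong orientation would be lost under that setting, and the sources do not state whether the kit keeps strand. Each sample was labeled as a separate biological replicate. Libraries held 33268424 to 56488920 counted reads, so counting error was small beside the spread between mice.

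Genes passing edgeR's filterByExpr (minimum count 10) were scaled by TMM and tested with the quasi-likelihood F-test in edgeR 4.0.16 (R 4.3.3), with 4 group means in 1 fit. Contrasts were LKO against CRE- in each sex, their difference, their mean, and female against male CRE-. The call was a Benjamini-Hochberg adjusted p under 0.05. Log2 CPM for correlations used a prior count of 2. The steps were tested on simulated data. Alternatives were DESeq2 1.42.0, limma 3.58.1 voom with sample weights, other scalings, filters and thresholds, each sex alone, a replicate block, and leaving out libraries.

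The genes named were all 10 members, Gcgr, up to 4 called genes per role list (else the 2 of smallest p), and the 3 genes most alike to each called member. Some results of the role lists are not reported here. Fabp2, Fabp4, Fabp5, Gpihbp1, Hnf4a and Stab2 stood in both a role list and a marker list. Members and lists were chosen with earlier results of these data known. The authors' own comparison tables were not used.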

Additional observations from a re-analysis of the deposited data

Results flagged for a closer look

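In each group of 4 mice, the gap between the highest or lowest library and its nearest neighbor was divided by the range of the group. Of 44 groups examined (10 genes and Gcgr in 4 groups), 7 exceeded the critical value of Dixon's test for 4 samples. For normally distributed values chance takes about 1 in 20 groups past it. CPM was not shown to be so distributed, and the groups share the same 16 libraries. The 7 of 44 therefore cannot be read against that rate. The ratio was 0.949 for Gcgr in male CRE- mice, where CRE- 3 was lowest. For Apoa1 it was 0.874 in male CRE- mice, where CRE- 4 was highest, and 0.885 in male LKO mice, where LKO 1 was lowest. For Apoa4 it was 0.925 in female CRE- mice, where CRE- 3 was lowest within a narrow range, and 0.947 in female LKO mice, where LKO 4 was highest. For Apoc3 it was 0.850 in female LKO mice, where LKO 1 was lowest. For Mttp it was 0.856 in female CRE- mice, where CRE- 1 was lowest.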

How the results depend on the processing

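Of 2182 gene-level values under an alternative, over 82 results, 1899 kept direction and side of the threshold, 213 kept direction and lost the call, 29 kept direction and gained it, and 41, from 16 results, changed sign. The fits with the length trend removed and without the libraries that stood apart were chosen after seeing the data. Among the 10 members, edgeR's 1 call in females, beside 710 calls over all 16742 genes, became 2 with DESeq2 (1816 over all genes) and 2 with limma-voom (1976), in both Apoc3 and Lpl, and 3 with the length trend removed (Apoa2, Apoc3 and Lpl, beside 1209), so that calls over all genes rose too. It became 0 with each sex alone (119), with upper-quartile scaling (552), without female LKO 1 and 4 (78) or at an adjusted p under 0.01 (51). It was 0 to 1 with any 1 library left out (87 to 1310). For the sex difference DESeq2 called 1 (371 over all genes), for the mean over both sexes the fit with the length trend removed called 1 (658), and between control sexes DESeq2 and limma-voom each called 1 (509 and 329), with 0 to 1 when 1 library was left out.

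Of the listed pathway genes, 1 was called in males, Cav1. It was not called by limma-voom, whose calls were other genes, nor without female LKO 1 and male CRE- 3 (adjusted p = 0.125). The count of 1, beside 76 calls over all genes, became 5 with DESeq2 (339 over all genes), 2 with limma-voom (148) and 2 without female LKO 1 and 4 (171). It became 0 with each sex alone (107), with at least 10 counts in every library (53), or at an adjusted p under 0.01 (22). With 1 library left out the count was 0 to 2 (26 to 111). In females 10 were called, beside 710 over all genes. This became 23 with DESeq2 (1816 over all genes), 20 with limma-voom (1976), 19 with the length trend removed (1209) and 6 with upper-quartile scaling (552). It became 6 without the filter (569), 5 with a minimum of 1 on the absolute log2 scale (528) and 2 without female LKO 1 and male CRE- 3 (361). The count was 1 with each sex alone (119), and 0 without female LKO 1 and 4 (78) or at an adjusted p under 0.01 (51). With 1 library left out it was 0 to 17 (87 to 1310). For the sex difference 0 became 3 with DESeq2 (371 over all genes), and 0 to 1 with 1 library left out (0 to 14). For the mean over both sexes 8 were called, beside 478 over all genes. This became 16 with DESeq2 (1034 over all genes), 5 with upper-quartile scaling (436), 5 without the filter (472) and 5 without female LKO 1 and 4 (400). It became 2 at an adjusted p under 0.01 (152) or with a minimum of 1 on the absolute log2 scale (279). With 1 library left out it was 4 to 9 (299 to 598).

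With the replicate block, which fits the replicate number as a term, 2 members were called in females (Apoc3 and Lpl), 18 pathway genes in females and 0 in males. Over all genes the replicate block gave 1244 calls in females in place of 710 and 63 in males in place of 76. Whether replicate numbers pair the mice is open: deviations from the group means of same-numbered CRE- and LKO libraries correlated at 0.170, 0.170, 0.144 and -0.013 in males and at 0.173, 0.105, 0.117 and 0.028 in females, and 4 of 8 controls correlated best with the LKO library of their own number.

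Values that changed sign were all of comparisons that did not pass. In males Apoa1 (-0.0017) became 0.040 with the replicate block and 0.13 with limma-voom, Apoa4 (-0.83) became 0.028 with limma-voom and 0.034 without female LKO 1 and male CRE- 3, Apob (-0.36) became 0.015 without the same libraries, and Apoe (0.02) became -0.0048 with each sex alone, -0.044 with the length trend removed and -0.16 without the same libraries. With limma-voom Angptl6 became 0.10 and Msr1 -0.12 in males, and Apoa1 became 0.14 in females. For the sex difference Apoa1 became 0.0075 with limma-voom and 0.068 with the length trend removed, Apob became -0.33, -0.16 and, without female LKO 1 and male CRE- 3, -0.30, and Srebf1 became 0.0024 without female LKO 1 and 4. With 1 library left out, male values ran from -0.11 to 0.25 for Apoa1, -1.11 to 0.030 for Apoa4, -0.19 to 0.14 for Apoa5, -0.54 to 0.0087 for Apob, -0.24 to 0.077 for Apoc3, -0.16 to 0.15 for Apoe, -0.057 to 0.16 for Mttp, -0.025 to 0.41 for Dgat2 and -0.085 to 0.22 for Msr1. Those of the sex difference ran from -0.52 to 0.015 for Apoa1, -0.11 to 0.44 for Apob, -0.38 to 0.044 for Cd36 and -0.40 to 0.32 for Srebf1, and female Cav1 from -0.38 to 0.079. The cause was not tested.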

Other observations

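The gene whose log2 CPM followed each member most closely over the 16 libraries differed by member, as a description made after the values were seen. The closest was Serpina1a for Apoa1 (Pearson r = 0.833), Hebp1 for Apoa2 (r = 0.978), Shc2 for Apoa4 (r = 0.854), Mfsd4b1 for Apoa5 (r = 0.928), Utrn for Apob (r = 0.981), Shmt2 for Apoc3 (r = 0.965), Ndufs3 for Apoe (r = 0.978), Cldn12 for Mttp (r = 0.897) and Tafa2 for Cd36 (r = 0.859). For Apoe the next were Adi1 (r = 0.976) and then Apoc1, its neighbor in the same apolipoprotein cluster (r = 0.974). These correlations share the scaling of the libraries and the group differences.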
